A study of Mus musculus with 23 samples.

Results

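The genes described here are 10 components of the unfolded protein response of the endoplasmic reticulum (ER): Hspa5, Hsp90b1, Pdia4, Dnajb9, Sdf2l1, Hyou1, Manf, Creld2, Herpud1 and Xbp1. They were chosen by symbol, not by their values. All 10 were found among the 24475 genes measured and passed the filter on low expression (at least 0.5 RPKM in at least 5 libraries), which 11939 genes passed. Most encode chaperones or folding factors. Herpud1 encodes a component of the degradation machinery for misfolded proteins, and Xbp1 encodes a transcription factor of the response.

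Livers of male C57BL/6J mice were taken after 4 months on chow or a high-fat diet (HFD) and 3 weeks of antibody at 10 mg/kg. REGN1193 blocks the glucagon receptor (GCGR), and the mice not given REGN1193 received REGN496, taken here as the isotype control because no other antibody is named. The 23 liver libraries comprise control antibody on chow (libraries 1 to 5, n = 5), GCGR antibody on chow (6 to 11, n = 6), control antibody on HFD (12 to 17, n = 6) and GCGR antibody on HFD (18 to 23, n = 6). No genotype other than the strain is named, no group went without an antibody, and neither the age of the mice nor the hour of sampling is given.

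Secreted and membrane proteins fold inside the ER, and hepatocytes, which secrete most plasma proteins, are rich in it. The chaperone BiP, encoded by Hspa5, binds unfolded chains and also the lumenal parts of the stress sensors IRE1, PERK and ATF6. When unfolded chains accumulate, IRE1 splices the Xbp1 mRNA, ATF6 is cut into an active transcription factor, and PERK slows translation. Spliced XBP1 and cleaved ATF6 then raise chaperone genes through promoter elements named ER stress response elements. Splicing of Xbp1 cannot be read from a gene total, so the Xbp1 values below are its whole transcript level.

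Sequences around these elements are shown because they are the known binding sites through which the chaperone genes respond together. Promoter windows of 300 bases (250 before the annotated start) were given by RefSeq, build GRCm38.p6, for 8 of the 10 genes; Hyou1 and Manf had no entry. Both strands were searched for the ER stress response element (ERSE; CCAAT, then any 9 bases, then CCACG) and for ERSE-II (ATTGG, any 1 base, then CCACG). ERSE was found in Hspa5, Hsp90b1 and Creld2, and ERSE-II in Herpud1. Hspa5 holds its match 65 to 47 bases before the start (shown: chr2:34772000-34772068, plus strand of the chromosome). Herpud1 holds its match 52 to 42 bases before the start (chr8:94386352-94386412, plus strand). Creld2 holds its match on the opposite strand, 126 to 108 bases before the start (chr15:88819495-88819563, plus strand). Hsp90b1 holds 2 matches, 212 to 194 bases before the start and, on the opposite strand, 107 to 89 bases before it (chr10:86705508-86705681, minus strand). Each is written 5′ to 3′ in the direction of its gene, with the matched element in capitals, so that CCACG reads as CGTGG where the match lies on the opposite strand.
Hspa5: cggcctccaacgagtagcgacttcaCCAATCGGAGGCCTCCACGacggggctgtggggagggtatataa
Herpud1: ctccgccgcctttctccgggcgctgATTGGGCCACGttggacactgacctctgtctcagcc
Creld2: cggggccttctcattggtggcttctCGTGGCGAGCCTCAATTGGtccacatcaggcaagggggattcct
Hsp90b1: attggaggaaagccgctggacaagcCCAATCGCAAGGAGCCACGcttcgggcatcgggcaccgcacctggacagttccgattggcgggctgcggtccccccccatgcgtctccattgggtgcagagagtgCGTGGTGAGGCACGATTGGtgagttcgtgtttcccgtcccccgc

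ERSE occurred in 39 of the 32851 promoter windows of the RefSeq table (0.119%), and ERSE-II in 12 (0.0365%). The CCACG part, which both elements contain, occurred in 10765 windows (32.8%) and in 7 of the 8 windows of these genes, the exception being Xbp1. No full element was in the windows of Pdia4, Dnajb9, Sdf2l1 or Xbp1, which says only that these letters are not in the window. Among 44 windows of other ER chaperone and folding genes, those of Calr, Canx, Dnajb11, Dnajc3, Ero1b and Pdia6 held ERSE or ERSE-II.

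The libraries were of similar depth, at 0.865 to 1.15 relative to each other. HFD libraries 20 and 19, both given GCGR antibody, stood furthest from their own group, with mean correlations of 0.9789 and 0.980 to it. The other libraries had 0.9836 to 0.9916. Calls of the 10 genes that rest on library 19 or library 20 are given with and without them. Counts over the gene lists also moved without them, as given below. All 10 hepatocyte markers examined were found, with albumin (Alb) at 26485 to 40885 RPKM, while the exocrine pancreas enzymes Prss1 and Cpa1, of another ER-rich tissue, were listed at 0 in every library. The summed level of all 10 pancreas markers ran from 6.83 to 41.7 RPKM, 6 of them being at 0 throughout. In whole-liver RNA, fewer cells of a type and less RNA per cell cannot be told apart.

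Hspa5 had the highest mean level per gene length, 336.3 ± 87.6 RPKM (SD, n = 23 libraries), followed by Hsp90b1 at 303.4 ± 40.0 RPKM, which encodes the ER form of HSP90. Hspa5 lay above Hsp90b1 in 16 of 23 libraries, so their order was not uniform. Herpud1 (187.5 RPKM) came next and lay below Hsp90b1 in 22 libraries. Manf (117.6 RPKM) and Pdia4 (110.9 RPKM) alternated in order from library to library, Manf being higher in 11 of 23. Below them came Xbp1 (93.6 RPKM), Hyou1 (55.8 RPKM), Creld2 (31.3 RPKM), Sdf2l1 (31.3 RPKM) and Dnajb9 (23.3 RPKM). Hyou1 exceeded Creld2 in all 23 libraries, whereas Creld2 exceeded Sdf2l1 in 11.

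**Figure D1:**
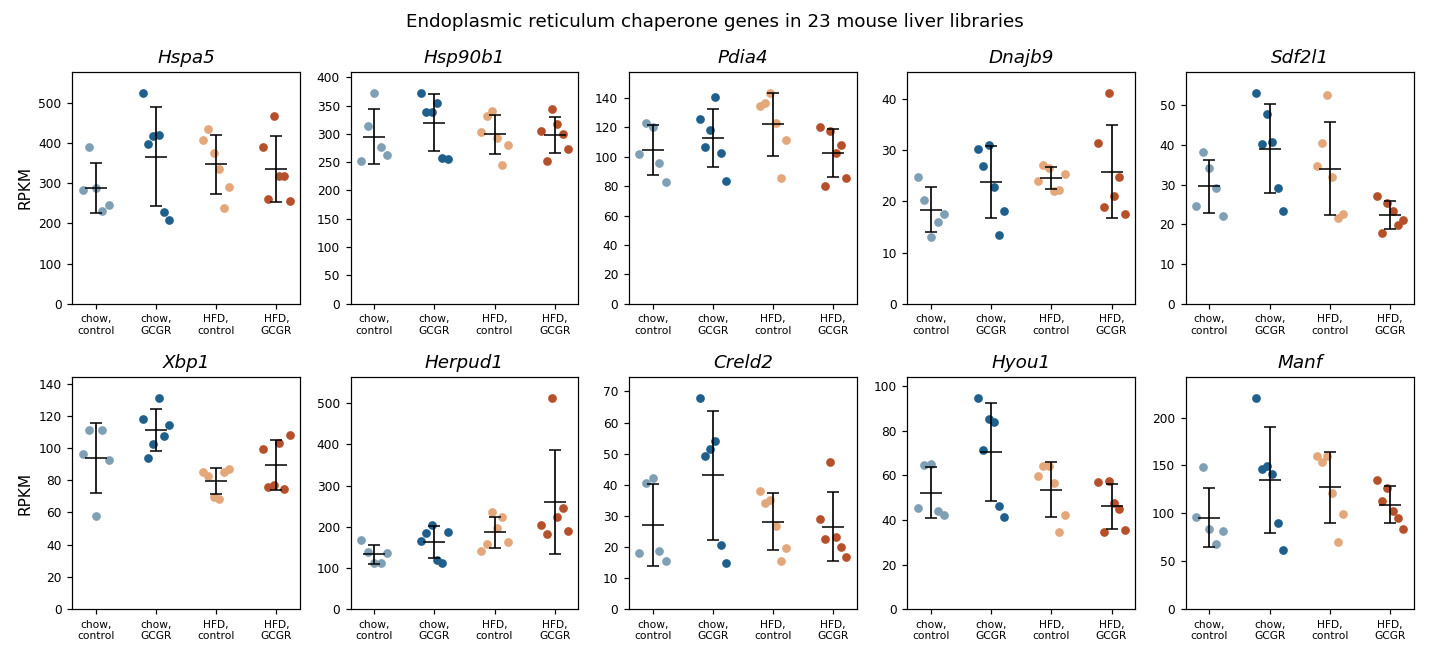
Expression of each gene (vertical axes, RPKM from 0) in the 4 groups of mouse liver, 1 point per library, with bars at the group mean ± SD. The GCGR-antibody chow group splits into 4 livers with high and 2 with low Hspa5, and Herpud1 in 1 HFD liver given GCGR antibody reaches 512.1 RPKM.

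The first comparison asked what GCGR blockade did to these genes in lean liver. All 10 estimates were above 0, from 0.10 for Pdia4 to 0.60 for Creld2 on the log2(RPKM + 1) scale, but none passed the test (limma, adjusted p 0.5185 to 0.8602), and none did so at an unadjusted p under 0.05. Of all tested genes, 0.946% were called in this comparison, and 63.0% had an estimate above 0. The median estimate was 0.31 for the 10 genes and 0.03 for all tested genes.

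Hspa5, the BiP gene, was at 282.7, 389.9, 289.3, 229.8 and 247.0 RPKM in the chow livers given control antibody. Under GCGR antibody its lowest, median and highest values were 208.6, 407.5 and 524.9 RPKM. Libraries 6 to 9 held 397.7 to 524.9 RPKM, above every chow control liver, while libraries 10 and 11 held 229.5 and 208.6 RPKM, both below the lowest control. The group means were 287.8 ± 62.2 RPKM and 366.4 ± 122.6 RPKM, and the difference of 0.30 ± 0.22 (SE) had an adjusted p of 0.6789 (limma).

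The factors that work with BiP followed this division to differing degrees. Hyou1, which encodes the large chaperone GRP170 that recharges BiP with ATP, was at 45.3, 64.5, 65.2, 44.2 and 42.3 RPKM in the chow controls. Under GCGR antibody libraries 6 to 9 held 71.3 to 94.7 RPKM of Hyou1, and libraries 10 and 11 held 46.3 and 41.1 RPKM. All 4 of the high livers lay above the controls, and the other two lay within the control range or just below it.
Manf, a small secreted protein that binds BiP, was at 95.8, 148.2, 84.1, 68.0 and 81.1 RPKM in the chow controls. Under GCGR antibody the lowest, median and highest Manf values were 61.6, 144.0 and 220.3 RPKM. The groups overlapped through library 2 of the controls and libraries 10 and 11 of the treated livers.
Sdf2l1, a component of the BiP complex with DnaJ proteins, was at 24.5, 38.1, 34.2, 29.2 and 21.96 RPKM in the chow controls, and its lowest, median and highest values under GCGR antibody were 23.4, 40.4 and 53.0 RPKM. Dnajb9, the DnaJ cochaperone ERdj4, was at 24.7, 20.2, 13.1, 16.02 and 17.6 RPKM in the controls and between 13.5 and 31.1 RPKM (median 24.8) in the treated livers. Libraries 6 to 9 held 40.1 to 53.0 RPKM of Sdf2l1, above every control, and libraries 10 and 11 lay within the control range. Dnajb9 did not divide in this way, library 9 (22.7 RPKM) lying below control library 1.

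Creld2, an ER-resident protein that can also be secreted, had the largest estimate and the largest error of the 10 genes on chow, 0.60 ± 0.36 (SE; adjusted p = 0.6005, limma). Its chow control values were 17.9, 40.7, 42.3, 18.6 and 15.6 RPKM. Libraries 6 to 9 held 49.1 to 67.8 RPKM of Creld2, libraries 10 and 11 held 20.6 and 14.9 RPKM. Among the foldases, Pdia4, a protein disulfide isomerase, averaged 104.9 ± 17.1 RPKM in the chow controls and 113.0 ± 19.8 RPKM under GCGR antibody. Hsp90b1 averaged 295.2 ± 48.7 RPKM and 319.5 ± 49.95 RPKM, with ranges that nearly coincided (251.9 to 371.7 RPKM and 256.2 to 372.2 RPKM).

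Xbp1 was at 96.5, 111.3, 58.0, 111.4 and 92.9 RPKM in the chow controls. Under GCGR antibody its lowest, median and highest values were 94.0, 110.9 and 131.0 RPKM. Library 3 of the controls stood alone at the low end, library 5 lay just below the lowest treated liver, and the other controls lay within the treated range. Xbp1 had the smallest adjusted p of the 10 genes on chow (0.27 ± 0.14, adjusted p = 0.5185, limma), and without library 3 its estimate was 0.11. Herpud1, which anchors the degradation complex in the ER membrane, was at 166.5, 138.5, 112.7, 111.3 and 136.5 RPKM in the controls and between 111.4 and 204.3 RPKM (median 175.7) under GCGR antibody.

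On HFD, GCGR antibody was again tested against control antibody, and none of the 10 genes passed (limma, adjusted p 0.1144 to 0.9917), beside 7.45% of all tested genes. The estimates went both ways, 3 above 0 and 7 below, with a median of -0.08 against 0.05 for all tested genes. Of all tested genes, 62.8% had an estimate above 0. Sdf2l1 was the one gene of the 10 with an unadjusted p under 0.05. Its values ran from 21.7 to 52.6 RPKM (median 33.3) under control antibody and from 17.7 to 27.1 RPKM (median 22.2) under GCGR antibody. In 4 of the 6 control livers Sdf2l1 lay above every treated liver, and libraries 16 and 17 lay within the treated range. The group means were 34.0 ± 11.6 RPKM and 22.4 ± 3.48 RPKM, a difference of -0.53 ± 0.20 (SE; adjusted p = 0.1144, limma).

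Hspa5 and its other partners had smaller estimates on HFD. Hspa5 averaged 347.1 ± 73.6 RPKM under control antibody and 335.7 ± 81.3 RPKM under GCGR antibody (difference -0.05 ± 0.21, adjusted p = 0.9046, limma). Hyou1 averaged 53.6 ± 12.4 RPKM and 46.1 ± 10.0 RPKM. Manf averaged 127.5 ± 37.0 RPKM and 109.1 ± 19.2 RPKM, and Creld2 averaged 28.1 ± 9.11 RPKM and 26.4 ± 11.1 RPKM. For each of these 4 genes the SDs were larger than the difference between the means. Pdia4 averaged 122.3 ± 21.4 RPKM under control antibody and 102.4 ± 16.5 RPKM under GCGR antibody, and Hsp90b1 averaged 299.1 ± 34.5 RPKM and 298.3 ± 32.2 RPKM.
Dnajb9 was even across the control livers (22.01 to 27.0 RPKM) and spread in the treated ones (17.5 to 41.1 RPKM), with nearly equal means of 24.5 and 25.8 RPKM. Xbp1 averaged 79.6 ± 8.33 RPKM and 89.6 ± 15.6 RPKM. Herpud1 ran from 140.9 to 235.5 RPKM (median 179.7) under control antibody and from 183.3 to 512.1 RPKM (median 214.5) under GCGR antibody. Its difference was 0.40 ± 0.21 (SE; adjusted p = 0.241, limma), and without library 20, which held the 512.1 RPKM, it was 0.19.

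The antibody effect differed between the diets for none of the 10 genes by the interaction contrast (limma, adjusted p 0.2758 to 0.908), which called 0.201% of all tested genes. For 9 of the 10 genes the estimate on HFD was lower than on chow, with a median difference of -0.35 against 0.02 for all tested genes. Of all tested genes, 53.9% had a difference above 0. Most of the 10 genes varied together between livers, as given below, so they are not separate observations. The interaction was largest for Sdf2l1, -0.89 ± 0.29 (SE; adjusted p = 0.2758), the one gene of the 10 with an unadjusted p under 0.05. Sdf2l1 had a mean of 29.6 ± 6.68 RPKM in chow control livers and 39.0 ± 11.1 RPKM with GCGR antibody on chow, beside the means of 34.0 and 22.4 RPKM on HFD given above. Creld2 (-0.70 ± 0.50), Manf (-0.62 ± 0.36) and Hyou1 (-0.59 ± 0.29) had the next estimates in size.

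HFD was compared with chow under control antibody, a contrast that called 29.9% of all tested genes and none of the 10 (limma, adjusted p 0.106 to 0.9462). Herpud1 had the largest estimate, 0.47 ± 0.22 (SE; adjusted p = 0.106), at 133.1 ± 22.6 RPKM on chow and 186.1 ± 38.3 RPKM on HFD. It was the one gene of the 10 with an unadjusted p under 0.05. Dnajb9 averaged 18.3 ± 4.39 RPKM on chow and 24.5 ± 2.14 RPKM on HFD (0.42 ± 0.21, adjusted p = 0.1231). With only these groups in the fit, Dnajb9 (adjusted p = 0.02438) and Herpud1 (adjusted p = 0.02789) both passed. Manf had an estimate of 0.41 ± 0.26, and those of Hspa5 (0.27 ± 0.22), Pdia4 (0.21 ± 0.14), Sdf2l1 (0.15 ± 0.21), Creld2 (0.12 ± 0.36), Hsp90b1 (0.03 ± 0.12) and Hyou1 (0.02 ± 0.21) lay nearer to 0.
Of all tested genes, 44.7% had an estimate above 0 in this comparison. Among the 10, Xbp1 alone had an estimate below 0, -0.21 ± 0.14 (SE), with an adjusted p of 0.2765 (limma). It was at 68.4 to 87.0 RPKM on HFD, and 4 of the 5 chow controls lay above that range, while library 3 lay below it. Without library 3 the Xbp1 estimate was -0.37 and passed (adjusted p = 0.02454, limma).

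Under GCGR antibody, the livers on HFD had less Sdf2l1 and Hyou1 and more Herpud1 than those on chow, and 3 of the 10 genes were called. This contrast called 29.8% of all tested genes, 13.2% higher and 16.6% lower on HFD, so the share among the 10 genes lay near that of all genes. It shares its HFD livers with the antibody comparison on HFD and its chow livers with the antibody comparison on chow. Sdf2l1 ran from 23.4 to 53.0 RPKM (median 40.4) on chow and from 17.7 to 27.1 RPKM (median 22.2) on HFD. Only library 11 of the chow livers fell within the HFD range of Sdf2l1. The change of Sdf2l1 was -0.74 ± 0.20 (SE; adjusted p = 0.00899, limma), and Sdf2l1 passed under each alternative setting that was run.

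Hyou1 ran from 41.1 to 94.7 RPKM (median 77.8) on chow and from 34.4 to 57.3 RPKM (median 46.1) on HFD under GCGR antibody. Libraries 6 to 9 on chow lay above every HFD liver, and libraries 10 and 11 lay among them. The change was -0.57 ± 0.20 (SE; adjusted p = 0.0398, limma), and the call was lost when any of libraries 6, 7, 8, 9, 19, 21, 22 or 23 was left out (adjusted p 0.05268 to 0.09304).
Herpud1 ran from 111.4 to 204.3 RPKM (median 175.7) on chow and from 183.3 to 512.1 RPKM (median 214.5) on HFD. In 4 of the 6 HFD livers Herpud1 lay above every chow liver. The change was 0.61 ± 0.21 (SE; adjusted p = 0.0297, limma), with means of 162.1 ± 38.5 RPKM and 259.7 ± 125.6 RPKM. Without library 20 it was 0.40 with an adjusted p of 0.06349, and the call was also lost without library 9 or without library 10.

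The other genes did not pass under GCGR antibody. Xbp1 averaged 111.2 ± 12.9 RPKM on chow and 89.6 ± 15.6 RPKM on HFD (-0.32 ± 0.13, adjusted p = 0.0758, limma), and it passed without library 3 or without library 23. Creld2 averaged 43.0 ± 20.7 RPKM on chow and 26.4 ± 11.1 RPKM on HFD, with an estimate of -0.58 ± 0.34 and an adjusted p of 0.2091. Manf (-0.21 ± 0.25), Pdia4 (-0.14 ± 0.14), Hsp90b1 (-0.09 ± 0.11), Hspa5 (-0.08 ± 0.21) and Dnajb9 (0.11 ± 0.20) had adjusted p values from 0.4735 to 0.7955. In none of the 4 comparisons of groups did any of the 10 genes have groups without overlap. Of all tested genes, 2.5% had none for the antibody on chow, 2.85% for the antibody on HFD, 15.9% for the diet under control antibody and 10.3% for the diet under GCGR antibody.

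**Figure D2:**
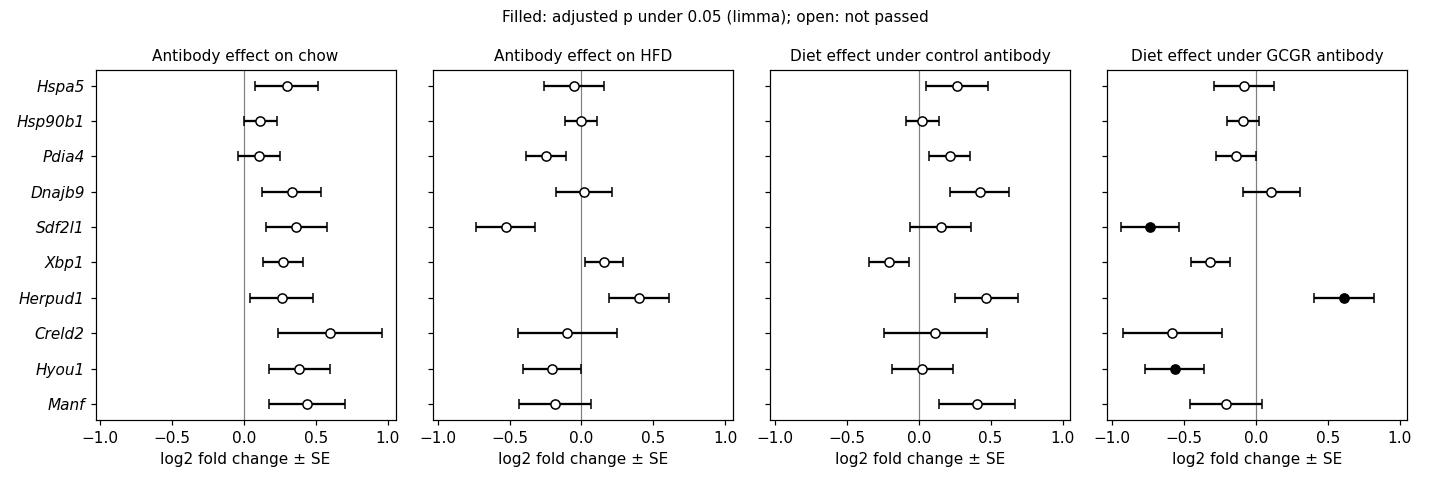
Log2 fold change of each gene ± SE (horizontal axes) in the 4 comparisons of groups; filled points passed an adjusted p of 0.05 (limma) and open points did not. Only Sdf2l1, Hyou1 and Herpud1 in the diet comparison under GCGR antibody are filled.

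Most of these genes varied more between livers of the same group than the typical gene. On the log2(RPKM + 1) scale, the spread between livers of a group had a median SD of 0.38 for the 10 genes and 0.15 for all tested genes. Creld2 was the most variable, with an SD of 0.65, larger than that of 98.7% of tested genes. Manf followed with 0.47 (96.8%), then Hspa5 and Herpud1 with 0.39 each, Hyou1 and Sdf2l1 with 0.38 each and Dnajb9 with 0.37. Pdia4 (0.25), Xbp1 (0.25) and Hsp90b1 (0.20, larger than 75.8% of genes) were steadier. Within the GCGR-antibody chow group the highest Creld2 value was 4.56 times the lowest, and the highest Hspa5 value 2.52 times the lowest.

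This spread was shared. After each group's mean was subtracted, Hspa5 had a Pearson correlation of 0.97 over the 23 libraries with the mean deviation of the other 9 genes, and Hyou1 one of 0.94. Creld2 (0.89), Manf (0.86), Sdf2l1 (0.85), Pdia4 (0.83), Hsp90b1 (0.82) and Dnajb9 (0.69) followed. Herpud1 (0.21) and Xbp1 (-0.16) had the lowest values. Within the groups of 6 livers, Herpud1 had 0.69 in the HFD livers given GCGR antibody, which include library 20. It had 0.14 with GCGR antibody on chow and -0.33 in the HFD controls. With 6 livers each, these values are too uncertain to show a difference between groups, which was not tested. Over all 23 libraries Herpud1 had its highest correlation with Dnajb9, at 0.67. Over the 45 pairs of genes the median correlation was 0.67, from -0.29 to 0.94, with 19 pairs above 0.8. These are descriptions: the genes of a pair share their libraries and each library's depth. The correlations were also taken without the 2 libraries where the mean deviation of the other 9 genes lay farthest from its median. These 2 were picked anew for each gene, so they were not always the same libraries. Hspa5 then had a correlation of 0.96, Hyou1 0.92, Herpud1 0.43 and Xbp1 -0.19.
In the groups of 6 livers, the median correlation over the 45 pairs was 0.84 with GCGR antibody on chow, 0.63 in the HFD controls and 0.74 with GCGR antibody on HFD. The 5 chow controls are too few for a correlation to be read, and not all genes moved together there: library 1 had the highest Dnajb9 (24.7 RPKM) and the lowest Hsp90b1 (251.9 RPKM) of the group, and library 3 the lowest Dnajb9 (13.1 RPKM) and the highest Hsp90b1 (371.7 RPKM).

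The same livers therefore stood high or low across most of the genes. In the chow controls library 2 was among the 2 highest for all 10 genes. In the GCGR-antibody chow group library 6 was the highest for 6 genes, and library 11 the lowest for 7. In the HFD controls library 14 was the highest for 5 genes and library 16 the lowest for 7. In the HFD livers given GCGR antibody library 20 was the highest for 6 genes, and libraries 19 and 23 were the lowest for 5 and 4. Relative depth in these libraries was 0.92 in library 2, 1.02 in library 6, 0.939 in library 11, 1.1 in library 14, 1.04 in library 16, 1.03 in library 20, 1.13 in library 19 and 0.941 in library 23. Neither the high nor the low livers were all of lower or all of higher depth.

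**Figure D3:**
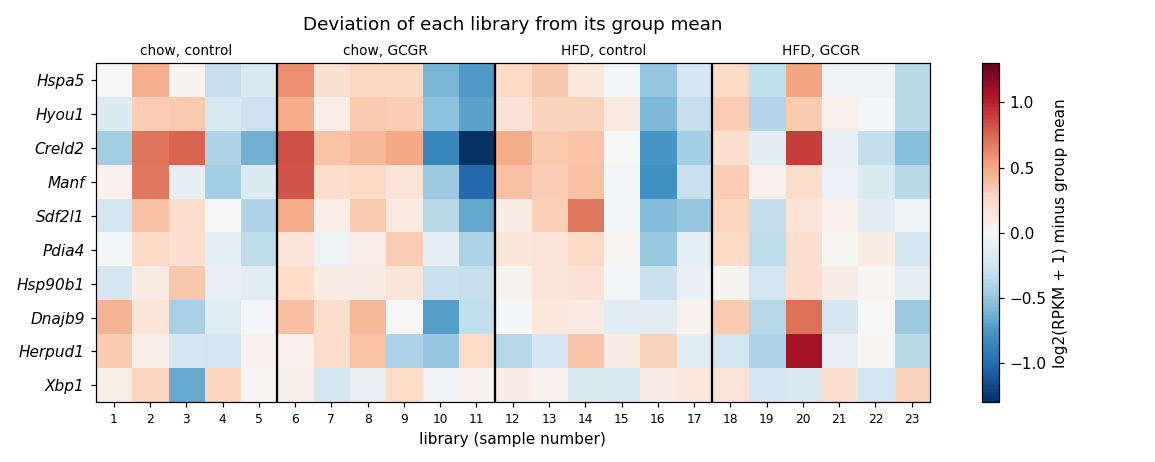
Deviation of each library (columns, numbered as in the text) from its group mean for each gene (rows), in log2(RPKM + 1), red above and blue below the mean. Columns such as libraries 6, 10, 11, 16 and 20 are of nearly one colour from Hspa5 down to Hsp90b1, while the Xbp1 row does not follow them.

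Genes outside the 10 were ranked by the correlation of their within-group deviations with the mean deviation of the 10. Predicted genes (symbols of Gm and digits, Rik or LOC) and genes with the same values as another gene were passed over. The 8 most alike over the 23 libraries were Mical2 (0.91), Syvn1 (0.91), Sel1l (0.91), Dnajb11 (0.90), Hsph1 (0.89), Ero1lb (0.89), Acnat1 (0.88) and Gfpt1 (0.88). Syvn1 and Sel1l encode the ubiquitin ligase HRD1 and its partner, which remove misfolded proteins from the ER. Dnajb11 encodes the BiP cochaperone ERdj3, and Ero1lb an oxidase that supplies disulfide bonds. Hsph1 encodes a cytosolic chaperone of the HSP110 family, and Gfpt1 the first enzyme of the hexosamine pathway. Mical2 is known as an actin oxidase, and Acnat1 as a fatty acid conjugating enzyme of peroxisomes. Libraries 10 and 11 lay farthest from the median in the mean deviation of the 10. Among these 8 genes, the correlation without both libraries was lowest for Ero1lb, at 0.8478, and highest for Sel1l, at 0.8961. The median over all 11929 other tested genes was 0.03, and 5.61% of them exceeded 0.5.

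By list, a correlation above 0.5 was found for 15 of 46 other ER chaperones and folding enzymes, 11 of 32 genes of ER-associated degradation, 16 of 40 genes of entry into the ER and 14 of 43 genes of transport between ER and Golgi. Among 38 cytosolic chaperones 13 exceeded 0.5, among 17 mitochondrial chaperones 2, and among 30 secreted liver proteins none. The sensors themselves had correlations of 0.28 for Ern1 (IRE1), 0.45 for Eif2ak3 (PERK) and 0.41 for Atf6, and Atf4, the factor raised by PERK, had 0.10. Of all 19 sensors and factors of the response 4 exceeded 0.5, the highest being Wfs1 at 0.72. Among 31 targets of the PERK and ATF4 arm 5 did, the highest being Wars at 0.72.

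**Figure D4:**
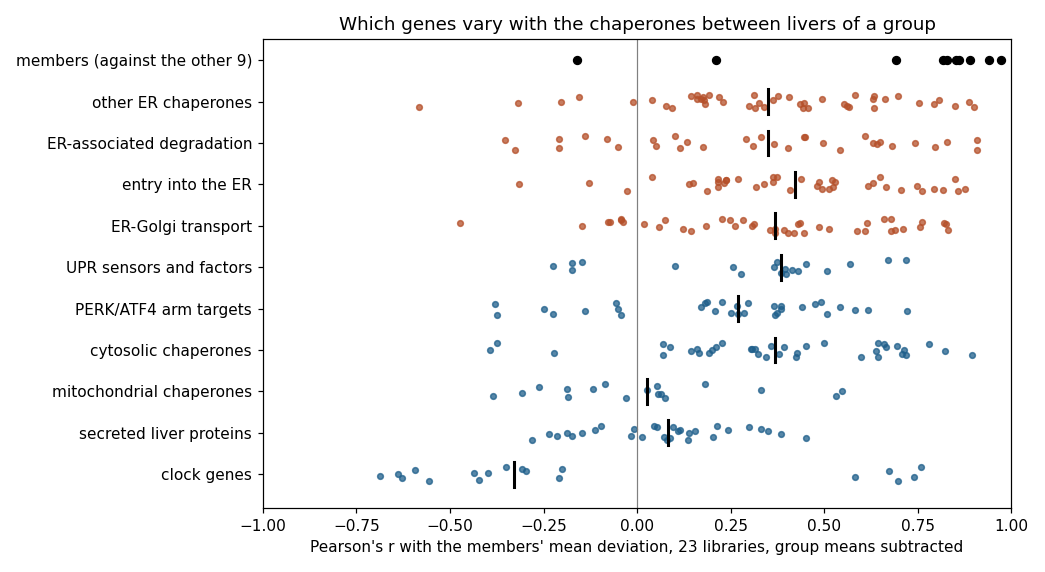
Pearson correlation of each gene's within-group deviation with the mean deviation of the 10 genes (horizontal axis, 23 libraries), 1 point per gene, by list, with a bar at the list's median; for the 10 genes the mean of the other 9 was used. Of the 10 genes 8 lie between 0.69 and 0.97, and the 18 clock genes lie in separate groups on either side of 0.

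Circadian clock genes also varied with these deviations. Of 18 clock genes, 5 had a correlation above 0.5 (Cry1 0.76, Nfil3 0.74, Arntl 0.70, Clock 0.67 and Npas2 0.58) and 5 one below -0.5 (Dbp -0.69, Per3 -0.64, Bhlhe41 -0.63, Nr1d2 -0.59 and Tef -0.56). Below -0.5 lay 2.51% of all other tested genes. Dbp, a clock output that swings widely over the day in liver, was at 1.997, 6.29, 14.97, 16.7 and 35.8 RPKM in the chow controls. With GCGR antibody on chow, Dbp was at 3.64 to 11.9 RPKM in libraries 6 to 10 and at 58.5 RPKM in library 11. In the HFD livers Dbp ran from 19.6 to 66.5 RPKM (median 53.1) under control antibody and from 12.9 to 57.8 RPKM (median 53.8) under GCGR antibody, where the 12.9 RPKM was library 20.
Library 11, low in the chaperone genes, thus had the highest Dbp of its group. Library 20, high in the chaperone genes, had the lowest Dbp of its group. Library 10, also low in the chaperone genes, had the next highest Dbp of its group after library 11. Its 11.9 RPKM lay far below library 11 and near library 8 (10.1 RPKM), which was not low in the chaperone genes. The clock genes were also called between the diets, 6 higher and 3 lower of 18 under control antibody and 9 higher and 4 lower under GCGR antibody. These contrasts called 29.9% and 29.8% of all tested genes. The 6 higher under control antibody fell to 3 without library 1 or library 16. The part of the clock in the chaperone differences was not tested.

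The rest of the ER folding machinery was read from lists that leave out the 10 genes. With GCGR antibody on chow, 1 of 46 ER chaperones and folding enzymes was called. This was Ero1lb, which rose from 18.7 ± 2.77 to 30.4 ± 6.98 RPKM (0.65 ± 0.15, adjusted p = 0.0261, limma), a call that was lost under 10 of the 32 alternatives. Of 40 genes of entry into the ER 2 were called, the signal peptidase subunits Sec11a (0.29 ± 0.07, adjusted p = 0.0446) and Sec11c (0.35 ± 0.08, adjusted p = 0.0417), both lost under at least 16 of the 32 alternatives. No gene was called among 32 of ER-associated degradation, 43 of transport between ER and Golgi or 19 sensors and factors of the unfolded protein response. Among 31 targets of the PERK and ATF4 arm, Cth, which makes cysteine from cystathionine, fell from 281.5 ± 40.4 to 134.2 ± 16.1 RPKM, and Shmt2 had an estimate of -0.21 ± 0.05 (adjusted p = 0.0751).

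With GCGR antibody on HFD, 2 of the 46 ER chaperones and folding enzymes were called. P4hb, an abundant protein disulfide isomerase, fell from 722.0 ± 88.1 to 590.2 ± 32.3 RPKM (-0.28 ± 0.06, adjusted p = 0.00897, limma). Txndc16, at under 1 RPKM on average, was higher by 0.24 ± 0.07, a call lost under 23 alternatives. Without library 19 the list had 3 higher genes, and without library 20 it had 0. Of 43 genes of transport between ER and Golgi 2 were higher and 2 lower. Sar1b, a small GTPase of vesicle budding, was 0.24 ± 0.06 higher (adjusted p = 0.0111), a call lost with only the 2 groups in the fit and by the exact rank-sum test. Ergic2 was 0.22 ± 0.06 higher (adjusted p = 0.0223), a call lost under these and both other scalings and without library 15 or library 18. The 2 lower calls fell to 1 or 0 without any of 16 libraries. The lower genes were Bet1 and Cope, named after their values were seen. None of 40 genes of ER entry, 32 of degradation and 19 sensors and factors was called, those with the smallest adjusted p including Sec61g (-0.36 ± 0.12, adjusted p = 0.0729), Edem3 (0.24 ± 0.08, adjusted p = 0.0723), Creb3 (-0.16 ± 0.06, adjusted p = 0.114) and Ppp1r15b (0.21 ± 0.09, adjusted p = 0.151). With median-ratio scaling 2, 1 and 1 genes of these 3 lists were lower. Without library 19 the counts were 1 lower for entry, 2 higher for degradation and 3 higher for sensors and factors. Entry had 2 lower without library 16 and 1 lower without library 11. In the PERK and ATF4 list Atf5 fell from 244.9 ± 44.1 to 123.3 ± 35.1 RPKM, while Atf4 itself averaged 55.2 ± 11.3 RPKM and 54.0 ± 4.51 RPKM and missed the threshold. Of 38 cytosolic chaperones 4 were higher, among them Dnaja2 (0.24 ± 0.05) and Dnajb6 (0.31 ± 0.06). Lower calls numbered 0, but 2 without library 19 and 1 without library 13 or library 20. Over all genes this comparison called 636 higher and 253 lower, but 397 and 474 with median-ratio scaling and 398 and 427 with upper-quartile scaling; among the cytosolic chaperones these scalings gave 3 higher and 1 lower, and 4 higher and 2 lower.

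Under control antibody the diet comparison called genes of the wider machinery while none of the 10 passed. HFD livers had 11 higher and 4 lower of the 46 ER chaperones and folding enzymes, beside 1390 higher and 2183 lower of all 11939 genes. With median-ratio scaling the ER list had 13 higher and 3 lower, beside 1828 and 1818 of all genes, and with upper-quartile scaling 10 and 5, beside 1357 and 2457. The mitochondrially encoded transcripts, read as a sign of RNA composition, were 10 higher and 0 lower of 13 in the same comparison. The 10 fell to 5 with upper-quartile scaling and without library 3, 4, 5, 12, 14 or 15. Their part in these differences was not tested. P4hb rose from 507.6 ± 14.7 to 722.0 ± 88.1 RPKM (0.50 ± 0.07, adjusted p = 1.99e-05, limma). Calr, the glycoprotein chaperone calreticulin, rose by 0.30 ± 0.09 (adjusted p = 0.0213), and Pdia6 rose by 0.37 ± 0.11 (adjusted p = 0.017). Calr lost its call without library 5 or library 14, and Pdia6 without library 5. Pdia5 fell from 32.2 ± 3.63 to 20.4 ± 1.96 RPKM.
Canx, Pdia3, Dnajb11 and Dnajc3 did not pass in any comparison, nor did Syvn1 and Sel1l. Genes of ER entry were 8 higher and 1 lower of 40, genes of transport between ER and Golgi 13 higher and 4 lower of 43, and genes of degradation 3 higher and 4 lower of 32. The genes with the smallest adjusted p in these lists were Srp9 (0.26 ± 0.07) and Magt1 (0.35 ± 0.10) for entry, Tango2 (0.47 ± 0.10) and Mcfd2 (0.36 ± 0.08) for transport, and Derl2 (0.31 ± 0.06), a channel component, and Rnf139 (-0.26 ± 0.06) for degradation. Among cytosolic chaperones Cct5 (-0.19 ± 0.05) and Dnajc7 (-0.21 ± 0.06) fell, and in the PERK and ATF4 list Vldlr, a lipoprotein receptor, rose from 0.135 ± 0.065 to 1.21 ± 0.413 RPKM. The degradation list turned from 3 higher and 4 lower to 5 and 2 with median-ratio scaling, whereas entry (11 and 1, or 7 and 2 with upper-quartile scaling) and transport (17 and 2, or 11 and 5) kept more higher than lower. Leaving out 1 library at a time gave 7 to 12 higher genes in the ER list (7 without library 14), 4 to 10 for entry (4 or 5 without library 1, 3, 4, 14 or 17), 8 to 13 for transport (8 without library 3, 4, 12 or 14) and 2 to 6 lower genes for degradation (2 without library 3, 4, 5, 12 or 14).

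Among the sensors, Ern1 fell from 11.5 ± 1.45 to 6.15 ± 1.16 RPKM on HFD under control antibody (-0.82 ± 0.15, adjusted p = 0.000493, limma) and had 11.9 ± 2.40 and 8.13 ± 2.16 RPKM on chow and HFD under GCGR antibody (-0.52 ± 0.14, adjusted p = 0.0097). Ddit3, which encodes the stress factor CHOP, rose from 3.64 ± 0.89 to 7.33 ± 1.80 RPKM under control antibody (0.84 ± 0.18, adjusted p = 0.00199). Eif2ak3, Atf6 and Atf4 passed in none of the comparisons. Creb3l3, a liver factor cut in the Golgi as ATF6 is, was 0.14 ± 0.05 higher on HFD under GCGR antibody, a call lost under 6 alternatives.

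Under GCGR antibody, genes of entry into the ER and of degradation that passed were all lower on HFD than on chow, beside 1579 higher and 1983 lower of all tested genes. With median-ratio scaling entry had 0 higher and 7 lower, degradation 1 and 6, and all genes 1847 and 1789; with upper-quartile scaling the counts were 0 and 13, 0 and 8, and 1430 and 2424. Genes of ER entry were 0 higher and 11 lower of 40, with Spcs2, a signal peptidase subunit, falling from 50.5 ± 8.69 to 35.9 ± 2.58 RPKM (-0.47 ± 0.10, adjusted p = 0.00128, limma). Genes of degradation were 0 higher and 7 lower of 32, and ER chaperones and folding enzymes 5 higher and 7 lower of 46. The entry count was 6 without library 8 and 7 without library 6, 19 or 22, and the higher ER chaperones numbered 2 without library 9. Ero1lb fell from 30.4 ± 6.98 to 17.2 ± 3.13 RPKM (-0.77 ± 0.14, adjusted p = 0.000283), and Creld1, the relative of Creld2, fell by 0.36 (SE 0.09, adjusted p = 0.00527). P4hb was higher, by 0.20 ± 0.06 (adjusted p = 0.0263), a call lost without library 7, 11, 18 or 22. The interaction contrast called no gene of any of these lists.

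Markers of other cells were read beside these results, since plasma cells also express the 10 genes strongly. Of 11 B cell and plasma cell markers found, 6 were under 1 RPKM in every library, and Jchain reached at most 1.54 RPKM. Derl3, which is also in the degradation list, reached 9.99 RPKM. Its correlation with the mean deviation of the 10 genes was 0.65, beside -0.49 for Jchain. Of the 5 markers tested, Derl3 alone had a correlation above 0. The summed level of the list ran from 68.6 to 82.2 RPKM in chow controls, 48.5 to 61.5 with GCGR antibody on chow, 81.1 to 101.4 in HFD controls and 53.6 to 66.7 RPKM with GCGR antibody on HFD. Sdc1, which hepatocytes also express, was the only marker of that list called in any comparison. Of 10 exocrine pancreas markers 6 were at 0 in every library and none was called. In the diet comparison under GCGR antibody, 5 of 11 macrophage markers were lower and 1 higher, and 6 of 10 stellate cell markers were higher. The 5 lower macrophage markers fell to 3 without library 10 or library 19. Of 4 bile duct markers 2 were lower, of 10 endothelial markers 1 was higher and 2 lower, and of 4 T and NK cell markers 1 was higher. Of all tested genes, 13.2% were called higher and 16.6% lower in this comparison. The mitochondrially encoded transcripts were 3 higher and 0 lower of 13. In the same comparison 1 immediate-early gene of 11 was higher and 3 were lower. Their part in the results for Sdf2l1, Hyou1 and Herpud1 was not tested.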

How the data were processed

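Per the labels' protocols, liver RNA went into strand-specific libraries (KAPA mRNA-Seq kit, 12 PCR cycles), sequenced from 1 end for 33 cycles on a HiSeq 2500. GRCm38, FastQC and bcl2fastq 2.17 are named per the submitters' processing notes. How reads were aligned and counted, and whether by strand, is not given in the sources used here. RPKM, read numbers divided by gene length and library total, were deposited for 24475 genes in 23 columns, which were matched to samples by name, and 24375 gene IDs were found in RefSeq GRCm38.p6. Diet and antibody came from the sample titles. The labels do not say that each library came from another mouse, so the spread behind each p-value is that between samples and may be partly technical.

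The table gives no read totals. Low RPKM values fall on steps worth single reads, which gave relative depths over 2210 genes, with 88.1% of values within 0.05 of a whole multiple. Without absolute depth, no counting intervals were computed. None of the 10 genes shares its values with another gene.

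Values were tested as log2(RPKM + 1), with a pseudocount of 1, in limma 3.58.1 (R 4.3.3), with 4 group means over all 23 libraries, moderated statistics with a mean-variance trend, two-sided, and Benjamini-Hochberg adjustment over the 11939 genes that passed the filter, with a threshold of 0.05. The functions were tested on simulated data. Fold changes are on this scale, which understates changes of low genes. Correlations use deviations from group means, standardised per gene. Genes and lists were chosen with earlier results of these data known. Beyond the 10 genes, the text names 15 fixed pathway genes, the 2 of each ER, unfolded protein response, PERK/ATF4 and cytosolic chaperone list with the smallest adjusted p for the antibody on HFD and for the diet under control antibody (for the antibody on chow where the list had a call), and the 8 most alike; the clock genes and cell markers named were picked after their values were seen. The alternatives were a pseudocount of 0.1, no filter, median-ratio and upper-quartile scaling, no trend, robust moderation, array weights, only the 2 groups compared, an exact rank-sum test and leaving out each library.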

Additional observations from a re-analysis of the deposited data

Results flagged for a closer look

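In the HFD livers given GCGR antibody, Herpud1 in library 20 reached 512.1 RPKM, while the other 5 livers held 183.3 to 244.2 RPKM. The gap to the nearest liver was 0.815 of the range of the group, above Dixon's 95% critical value of 0.625 for 6 values. Chance alone marks about 1 in 20 sets of values, and 40 sets (10 genes in 4 groups) were examined, of which this was the only one marked. Library 20 was also the highest of its group for Hspa5 at 468.6 RPKM, Creld2 at 47.5 RPKM and Dnajb9 at 41.1 RPKM, and it had the lowest Dbp of its group, 12.9 RPKM. Without library 20 the diet effect on Herpud1 under GCGR antibody was 0.40 (adjusted p = 0.06349, limma) in place of 0.61 (adjusted p = 0.0297).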

How the results depend on the processing

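None of the 10 genes was called for the antibody on chow, the antibody on HFD or the difference between them under any alternative run, and Sdf2l1 passed in the diet comparison under GCGR antibody under all 32. For the diet under control antibody, 2 genes were higher with only the groups compared in the fit (Dnajb9 and Herpud1) and 1 with array weights (Herpud1); leaving out a library gave 0 to 1 higher (Herpud1, without library 20) and 0 to 1 lower (Xbp1, without library 3). For the diet under GCGR antibody, no filter, only the groups compared and the rank-sum test each left 0 higher and 1 lower, and leaving out a library gave 0 to 1 higher and 1 to 3 lower. The adjusted p of Herpud1 there ran from 0.02111 to 0.09142 over the alternatives, that of Hyou1 from 0.01002 to 0.2095 and that of Sdf2l1 from 0.002322 to 0.0456. The no-filter setting tests more genes, and the causes of the other shifts were not tested.

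Counts over all genes moved more. For the antibody on chow (113) array weights called 228, the rank-sum test 0 (1092 at an unadjusted p under 0.05), and leaving out a library gave 57 to 134 (57 without library 5). For the antibody on HFD (889) only the groups compared gave 423, array weights 2033, the rank-sum test 0 (2056 unadjusted), and leaving out a library 544 (library 12) to 1604 (library 19). For the difference between the antibody effects (24), no filter gave 8, upper-quartile scaling 15, array weights 190, and leaving out a library 5 to 65 (65 without library 19). For the diet under GCGR antibody (3562) the rank-sum test gave 2267.

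Signs changed for estimates near 0, none of them called. For the antibody on HFD, Hsp90b1 was 0.0417 with array weights, and Dnajb9 was -0.0428 with median-ratio and -0.0306 with upper-quartile scaling. Leaving out 1 library moved the antibody effect on HFD from -0.15 to 0.0189 for Hspa5, -0.0572 to 0.0449 for Hsp90b1, -0.13 to 0.11 for Dnajb9 and -0.28 to 0.0101 for Creld2. It moved the diet effect under control antibody from -0.0283 to 0.11 for Hsp90b1, -0.0409 to 0.30 for Creld2 and -0.0441 to 0.14 for Hyou1. It moved the diet effect under GCGR antibody from -0.23 to 0.0371 for Hspa5 and -0.0372 to 0.20 for Dnajb9, and the difference between the antibody effects from -0.18 to 0.0516 for Xbp1 and -0.0753 to 0.22 for Herpud1.

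RPKM without read totals allow no counting error for single values, and 5 or 6 livers a group limit what can be seen in genes this variable: the SE of a difference was 0.11 to 0.36 between groups. Splicing of Xbp1 and protein levels are outside these data.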
